A study of Mus musculus with 56 samples.

Results

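The comparison described here is the liver transcriptome of mice homozygous for the 446L form of GKRP (glucokinase regulatory protein, encoded by Gckr), with leucine at residue 446, against mice with proline there, all of them given a glucokinase activator (GKA). The members were chosen by their labels: 10 GKRP-446L mice with GKA (LL, mice 47 to 56) and 10 GKRP-446P mice with GKA (PP, mice 11 to 20), which is 20 of the 56 livers of the series. All were males of the P446L line on a B6N background, 28 weeks old at harvest, and had a high-fat high-sugar diet for 20 weeks (by energy 45% fat, 20% protein and 35% carbohydrate, with 10% glucose and 5% fructose in the water). GKA was given at 3 mg/kg to both groups, which by their labels differ by genotype alone. The other groups of the series are used only beside these: 8 heterozygous mice with GKA (PL), and 10 LL and 9 PP mice on the same diet without GKA, with PP mouse 7 left out. The variant is carried in the germline and not in hepatocytes alone, and food was withdrawn for 2 h before the cull.

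GKRP is an inhibitor of glucokinase (GK), the hexokinase that commits glucose to metabolism in the hepatocyte. At low glucose GKRP holds GK in the nucleus, and after a meal glucose and fructose 1-phosphate release it to the cytoplasm. A GKA binds GK itself and raises its affinity for glucose, and a common human variant at the same residue is known for its association with blood lipids and fatty liver.

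The codon for residue 446 lies in exon 15 of the transcript Gckr-202 (chr5:31466275-31466277, plus strand, GRCm39). The reference coding sequence around it is shown to place the variant, with the codon in capitals. The allele carried by the LL mice was not read from the data, since the files hold transcript totals and no bases.
Gckr-202: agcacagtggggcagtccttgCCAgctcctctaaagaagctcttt

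Total reads per liver were between 5189852 and 7730551 in the 20 mice (PP 6.74 ± 0.829 M reads, LL 6.39 ± 0.492 M reads, SD, n = 10 each). Levels are given as CPM, the normalised read count of a gene relative to the TMM-scaled total of its liver, which rank the mice for 1 gene but do not rank genes of different length. The share of mitochondrial reads was 9.46 ± 0.867% in PP and 10.3 ± 1.17% in LL (two-sided permutation test with 100000 resamples, p = 0.0728). The hepatocyte markers, among them Apoa1 and Cps1, summed to between 96587 and 137806 CPM in PP and between 88932 and 143671 CPM in LL. Of the markers of other tissues, 6 of 8 pancreas genes, 2 of 6 muscle genes and 2 of 5 adipose genes were at 0 in all 20 livers. The pancreas gene Cela1 was above 0 in every liver, at 7.34 to 33.9 CPM in PP and 8.64 to 25.7 CPM in LL. The pancreas genes summed to 20.3 ± 10.4 CPM in PP and 19.3 ± 5.99 CPM in LL. LL mouse 53 stood apart by its blood genes, which summed to 2963 CPM against at most 720.5 CPM in the other 19 livers.

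Gckr, the edited gene, was examined first. The level of Gckr (chr5:31454787-31484658, plus strand) ranged from 142 to 199 CPM (median 168) in the PP mice and from 117 to 186 CPM (median 153) in the LL mice. The groups overlapped, and the difference did not pass the test (log2 fold change -0.15, SE 0.08, unadjusted p = 0.0967, adjusted p = 0.596). In the mice without GKA the log2 fold change of Gckr was -0.26 (SE 0.09, unadjusted p = 0.00987, adjusted p = 0.238), which did not pass either. The difference between the LL effects with and without GKA was 0.12 (SE 0.12, unadjusted p = 0.341).

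Of 10460 genes tested with edgeR, 25 (0.239%) were differentially expressed by LL genotype (DEGs, an adjusted p below 0.05 with an LL level 1.3 times that of PP or more, or 0.7 times or less). Of these 19 (0.182%) were higher and 6 (0.0574%) were lower in LL, with adjusted p between 0.00378 and 0.044. Leaving out 1 mouse gave 12 to 47 DEGs, DESeq2 gave 92 (49 higher and 43 lower), and a fit with a transcript length offset gave 0. A further measure of the breadth of the difference is the 1086 genes (10.4%) with an unadjusted p below 0.05, of which 551 (5.27%) were higher and 535 (5.11%) were lower. The median log2 fold change over all genes was 0.002. In each of the 25 DEGs all 10 LL mice lay on the LL side of the PP mean. The DEGs were selected on these same mice, so this is a description and no further evidence. Its share over all genes was not counted. In 3 DEGs the groups did not overlap at all, against 3 of all 10460 genes (0.0287%), so that these were the same 3 genes (Brap, Ktn1 and Sntg2). In bulk liver RNA, fewer cells of a type and less RNA per cell cannot be told apart. The p-values take the mice as independent of one another, and the labels do not say that the mice came from separate litters or cages.

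**Figure D1:**
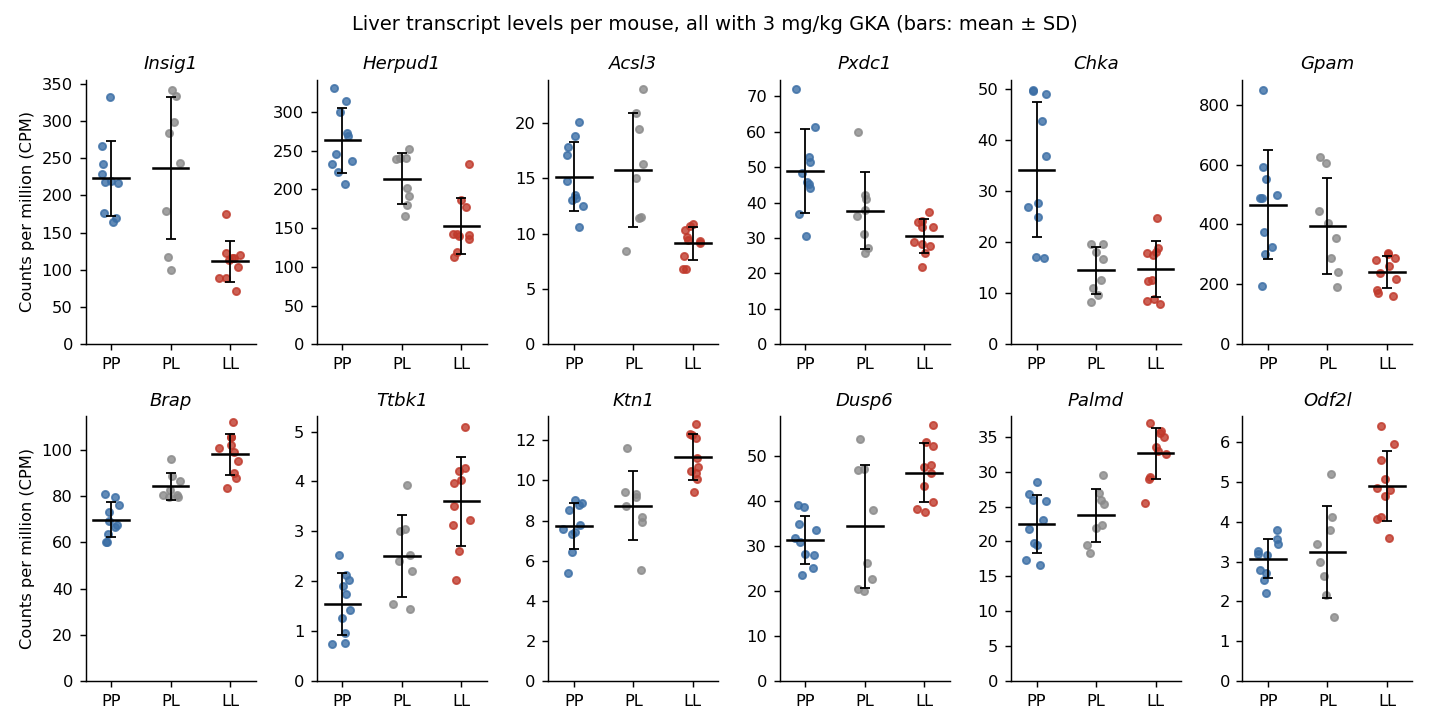
CPM of the 6 lower DEGs (upper row) and of the 6 higher DEGs with the smallest p (lower row) in each liver with GKA, by genotype; points are mice and bars are the mean ± SD (PP and LL n = 10, PL n = 8). In Brap and Ktn1 every LL mouse was above every PP mouse, and the highest LL mouse for Insig1 (175 CPM) was above the lowest PP mouse (164 CPM).

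Of the 6 genes that fell, the members with known roles act in sterol sensing, in the endoplasmic reticulum (ER) and in the synthesis of glycerolipids. Insig1 (chr5:28276315-28283668, plus strand) encodes the ER membrane protein that retains the sterol sensor SCAP with its SREBP cargo when sterols are plentiful. Its level ranged from 164 to 333 CPM (median 218) in the PP mice and from 71.7 to 175 CPM (median 114) in the LL mice. All but 1 of the LL mice were below the lowest PP mouse, and the exception was mouse 51. Insig1 was 0.5 times the PP level in LL (log2 fold change -0.999, SE 0.14, adjusted p = 0.00378), and it passed the thresholds in all 20 fits that left out 1 mouse. Herpud1 (chr8:95113022-95123141, plus strand), a component of the ER-associated degradation complex, ranged from 207 to 331 CPM (median 257) in the PP mice and from 113 to 233 CPM (median 142) in the LL mice. Again 9 of 10 LL mice were below the lowest PP mouse (log2 fold change -0.78, SE 0.12, adjusted p = 0.00658).

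The promoters of these 2 genes are printed because they were the lower DEGs with the smallest p, and that of Bhlhe40 because it is the clock gene among the DEGs. Each is 250 bases before to 50 bases after the start of the transcript with the most reads, read from GRCm39 (Insig1 chr5:28276077-28276376, plus strand, Herpud1 chr8:95112787-95113086, plus strand, Bhlhe40 chr6:108636376-108636675, plus strand). Capitals mark matches on either strand to the E-box CACGTG, to the ER stress response elements ERSE (CCAAT, any 9 bases, CCACG) and ERSE-II (ATTGG, any 1 base, CCACG), or to the sterol regulatory element (ATCAC, any 1 base, CCAC).
Insig1: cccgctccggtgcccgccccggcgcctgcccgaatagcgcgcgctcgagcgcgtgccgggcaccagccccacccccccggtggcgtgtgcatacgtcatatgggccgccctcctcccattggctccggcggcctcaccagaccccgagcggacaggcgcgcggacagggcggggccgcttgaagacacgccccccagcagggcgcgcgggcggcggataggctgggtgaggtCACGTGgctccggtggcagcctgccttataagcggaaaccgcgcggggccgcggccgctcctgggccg
Herpud1: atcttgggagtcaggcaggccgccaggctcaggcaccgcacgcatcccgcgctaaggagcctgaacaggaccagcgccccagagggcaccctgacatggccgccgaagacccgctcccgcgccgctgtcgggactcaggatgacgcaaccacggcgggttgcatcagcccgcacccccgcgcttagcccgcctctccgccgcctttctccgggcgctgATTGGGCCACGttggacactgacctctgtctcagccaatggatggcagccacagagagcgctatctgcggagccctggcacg
Bhlhe40: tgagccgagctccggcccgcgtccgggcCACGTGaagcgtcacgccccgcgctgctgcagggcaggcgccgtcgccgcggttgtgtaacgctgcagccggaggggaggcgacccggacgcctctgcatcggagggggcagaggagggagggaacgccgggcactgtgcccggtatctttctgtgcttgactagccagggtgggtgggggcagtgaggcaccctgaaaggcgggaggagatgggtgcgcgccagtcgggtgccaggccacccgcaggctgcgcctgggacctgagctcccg
The Herpud1 window held 1 ERSE-II and the Insig1 and Bhlhe40 windows 1 E-box each. Of the promoters of 10459 tested genes, 0.115% held an ERSE-II, 0.143% an ERSE, 10.2% an E-box and 0.143% the sterol regulatory element. A match is a description of the letters and was not tested as a binding site. The sterol element had no match in these windows or in those of the other 22 DEGs. It also matched 0 of 20 windows of cholesterol biosynthesis genes, 0 of 16 of sterol regulation genes and 1 of 15 of lipogenesis genes. The lack of a match to this exact pattern therefore cannot show that a promoter lacks a sterol element.

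Acsl3 (chr1:78635537-78685461, plus strand), an acyl-CoA synthetase of the ER and of lipid droplets, ranged from 10.6 to 20.1 CPM (median 14.1) in the PP mice and from 6.81 to 10.8 CPM (median 9.39) in the LL mice. All but 2 of the LL mice were below the lowest PP mouse (log2 fold change -0.73, SE 0.12, adjusted p = 0.0108). Its exons overlap those of Utp14b, and the strand setting of the counting was not given, so that part of the reads may belong to that gene. Gpam (chr19:55055700-55115784, minus strand), the mitochondrial acyltransferase that starts glycerolipid synthesis, ranged from 196 to 849 CPM (median 488) in the PP mice and from 162 to 304 CPM (median 251) in the LL mice. The PP range was wide and held 7 of the 10 LL mice (log2 fold change -0.95, SE 0.20, adjusted p = 0.0424), and Gpam passed in 7 of the 20 fits that left out 1 mouse. Chka (chr19:3901743-3944381, plus strand), the choline kinase of phosphatidylcholine synthesis, ranged from 16.9 to 49.8 CPM (median 32.3) in the PP mice and from 7.86 to 24.8 CPM (median 15.0) in the LL mice. Its LL level was 0.431 times that of PP and 5 of the 10 LL mice lay inside the PP range (log2 fold change -1.22, SE 0.24, adjusted p = 0.0279). The sixth lower DEG was Pxdc1, a PX domain protein (log2 fold change -0.68, SE 0.13, adjusted p = 0.023), which ranged from 30.5 to 72.2 CPM (median 47.2) in the PP mice and from 21.7 to 37.4 CPM (median 31.0) in the LL mice.

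Of the 19 higher DEGs, 15 with the smallest p are described by their roles. Transcription factors and a nuclear receptor formed the first group. Klf10, a glucose-responsive Kruppel-like factor, ranged from 6.52 to 20.1 CPM (median 12.1) in the PP mice and from 18.7 to 41.4 CPM (median 24.5) in the LL mice. Of the LL mice 8 were above the highest PP mouse, and the level was 2.16 times that of PP (log2 fold change 1.11, SE 0.21, adjusted p = 0.023). Bhlhe40, a repressor of the circadian clock, ranged from 34.0 to 76.4 CPM (median 61.4) in the PP mice and from 63.9 to 117 CPM (median 98.1) in the LL mice. Both ranges met between 63.9 and 76.4 CPM (log2 fold change 0.76, SE 0.15, adjusted p = 0.0295). Prox1, a homeobox factor of hepatocytes and lymphatic vessels, ranged from 23.2 to 64.3 CPM (median 38.5) in the PP mice and from 46.1 to 103 CPM (median 67.1) in the LL mice. It rose by a log2 fold change of 0.79 (SE 0.16, adjusted p = 0.03), with 7 of 10 LL mice above the PP range. Nr1h4, the bile acid receptor FXR (chr10:89289742-89369497, minus strand), ranged from 51.5 to 76.7 CPM (median 66.4) in the PP mice and from 70.6 to 112 CPM (median 94.1) in the LL mice. It rose 1.38-fold (log2 fold change 0.47, SE 0.10, adjusted p = 0.0401), 8 of 10 LL mice were above the highest PP mouse, and it passed in 8 of the 20 fits that left out 1 mouse.

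Signalling proteins formed a second group of higher DEGs. Brap (chr5:121798576-121825439, plus strand), a ubiquitin ligase that restrains the MAP kinase pathway, ranged from 60.0 to 80.9 CPM (median 68.3) in the PP mice and from 83.7 to 112 CPM (median 100.1) in the LL mice. The lowest LL mouse was thus above the highest PP mouse (log2 fold change 0.50, SE 0.07, adjusted p = 0.00378), although the exons of Brap overlap those of Acad10. Dusp6, the phosphatase of ERK, ranged from 23.5 to 39.2 CPM (median 31.2) in the PP mice and from 37.6 to 56.9 CPM (median 46.9) in the LL mice. All but 2 of the LL mice were above the PP range (log2 fold change 0.56, SE 0.10, adjusted p = 0.0204). Lepr, the leptin receptor, had the largest fold change of the DEGs, with 0.362 to 3.00 CPM (median 1.35) in the PP mice and 1.92 to 12.5 CPM (median 4.09) in the LL mice. Only 2 to 62 reads stood behind each value of Lepr, and 5 of the 10 LL mice lay inside the PP range (log2 fold change 1.92, SE 0.38, adjusted p = 0.0279). Casp8, the initiator caspase of death receptors, ranged from 12.7 to 17.5 CPM (median 14.9) in the PP mice and from 16.9 to 28.2 CPM (median 20.3) in the LL mice. It rose by a log2 fold change of 0.52 (SE 0.10, adjusted p = 0.023), with 9 of 10 LL mice above the PP range. Ttbk1, a kinase of tau and tubulin, ranged from 0.733 to 2.53 CPM (median 1.58) in the PP mice and from 2.02 to 5.09 CPM (median 3.74) in the LL mice. It rose by 1.22 (SE 0.21, adjusted p = 0.0144) on the log2 scale, with 9 of 10 LL mice above the PP range, and each value stood on 4 to 33 reads per mouse.

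The other higher DEGs have roles that share no theme. Ktn1 encodes kinectin, an ER membrane protein that binds kinesin, and ranged from 5.41 to 9.01 CPM (median 7.68) in the PP mice and from 9.43 to 12.8 CPM (median 10.9) in the LL mice without overlap (log2 fold change 0.53, SE 0.09, adjusted p = 0.0144). Srsf5, a splicing factor, ranged from 83.1 to 141 CPM (median 116) in the PP mice and from 136 to 199.6 CPM (median 152) in the LL mice. All but 1 of the LL mice were above the PP range (log2 fold change 0.47, SE 0.09, adjusted p = 0.023), and its exons overlap those of Slc10a1, the bile acid carrier. Palmd, which encodes palmdelphin, ranged from 16.7 to 28.5 CPM (median 22.4) in the PP mice and from 25.6 to 36.9 CPM (median 33.3) in the LL mice, with 9 of 10 LL mice above the PP range. Palmd (log2 fold change 0.53, SE 0.10, adjusted p = 0.023), Odf2l (0.67, SE 0.13, adjusted p = 0.023), Apbb3 (0.68, SE 0.14, adjusted p = 0.0323) and Rsad1 (0.74, SE 0.15, adjusted p = 0.0401) completed the 15, with 11 to 37 reads per mouse for Odf2l and 10 to 33 for Rsad1. Of the fits that left out 1 mouse, Rsad1 passed in 7, Prox1 in 12, Apbb3 and Bhlhe40 in 13 each, and Chka and Lepr in 15 each. The exons of Palmd and Apbb3 also overlap those of other coding genes. The remaining 4 higher DEGs, named after their values were seen, were Pik3ap1 (0.50), Nlrp12 (0.88), Sntg2 (1.13) and Fbf1 (1.10), each of which passed in 5 of the 20 fits that left out 1 mouse. In Sntg2 the groups did not overlap, with 0.592 to 2.62 CPM (median 2.13) in PP and 2.85 to 7.48 CPM (median 3.6) in LL. Each value of Sntg2 stood on 5 to 37 reads per mouse, and the gap between the groups, from 2.62 to 2.85 CPM, was narrow.

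The heterozygous mice with GKA had no DEG against the same PP mice (0 of 10520 genes tested with edgeR, with 862, or 8.19%, at an unadjusted p below 0.05, DESeq2 not run). Both comparisons share the PP mice, so their values for the DEGs are given side by side. Insig1 had a log2 fold change of 0.08 (SE 0.21) in PL and -0.999 in LL, and the PL mice ranged from 99.3 to 342 CPM (median 263). Acsl3 had 0.05 (SE 0.18) in PL and -0.73 in LL. For Insig1 and Acsl3 the mean of the heterozygotes was thus not below that of PP. Chka, by contrast, had -1.25 (SE 0.24) in PL and -1.22 in LL, and Rsad1 had 0.65 (SE 0.13) in PL and 0.74 in LL. Klf10 had 0.74 (SE 0.23) in PL and 1.11 in LL, and Bhlhe40 had 0.58 (SE 0.17) and 0.76. Herpud1 had -0.31 (SE 0.11) in PL and -0.78 in LL. The difference between the PL and LL effects was not tested.

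To determine whether the LL effect depended on the activator, the DEGs were examined in the LL and PP mice without GKA, which share no animal with those above. In the edgeR fit none of the 25 passed an adjusted p of 0.05 there, where 9 of 10537 genes (0.0854%) were DEGs. That count of 9 was 0 in most fits that left out 1 mouse, but 67 when PP mouse 6 was dropped and 85 when LL mouse 42 was. With DESeq2, and with all 6 groups in 1 fit, more genes were DEGs without GKA than with it. The counts of DEGs therefore do not show a weaker LL effect without GKA. The direction was that seen with GKA in 23 of the 25, against 58.1% of the 10363 genes tested in both. With that direction, 15 of the 25 had an unadjusted p below 0.05, against 939 (9.06%) of all genes. Chka had a log2 fold change of -1.26 (SE 0.33, unadjusted p = 0.00106) and Herpud1 -0.84 (SE 0.21, unadjusted p = 0.000533), both within 1 SE of the value with GKA. Klf10 had 0.87 (SE 0.21, unadjusted p = 0.000379) and Insig1 -0.85 (SE 0.23, unadjusted p = 0.00125). Ktn1 had 0.00 (SE 0.13, unadjusted p = 0.989) and Odf2l -0.11 (SE 0.20, unadjusted p = 0.574), so that both were at or below 0 without GKA. Casp8 had 0.08 (SE 0.12, unadjusted p = 0.514), Rsad1 0.04 (SE 0.21, unadjusted p = 0.851), Prox1 0.22 (SE 0.14, unadjusted p = 0.132) and Lepr 0.42 (SE 0.35, unadjusted p = 0.243).

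The interaction of LL genotype with GKA tested that difference itself. No gene of 11193 passed an adjusted p of 0.05 with edgeR (644, 5.75%, at an unadjusted p below 0.05, and 1 gene by DESeq2). Of the 25 DEGs, 6 had an unadjusted p below 0.05 in the interaction (all 25 had been selected on the effect with GKA). They were Odf2l at 0.78 (SE 0.23, unadjusted p = 0.00153), Ktn1 at 0.54 (SE 0.16, unadjusted p = 0.00171), Casp8 at 0.44 (SE 0.15, unadjusted p = 0.00726), Lepr at 1.50 (SE 0.54, unadjusted p = 0.00814), Rsad1 at 0.71 (SE 0.26, unadjusted p = 0.0105) and Prox1 at 0.56 (SE 0.22, unadjusted p = 0.0138). Their adjusted p was at least 0.708. Over all genes the interaction had its smallest p for Wdr75 (log2 difference of 0.66, SE 0.13, adjusted p = 0.181), a nucleolar protein of ribosome synthesis, which had a mean of 5.28 CPM in PP and 6.86 CPM in LL with GKA, and 6.66 and 5.48 CPM without. Mindy3 (0.53) and Trnt1 (0.48) were next among the positive differences, and Abcb6 (-0.37), Akr1c19 (-0.83) and Amz2 (-0.51) led the negative ones, all with an adjusted p of 0.505.

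**Figure D2:**
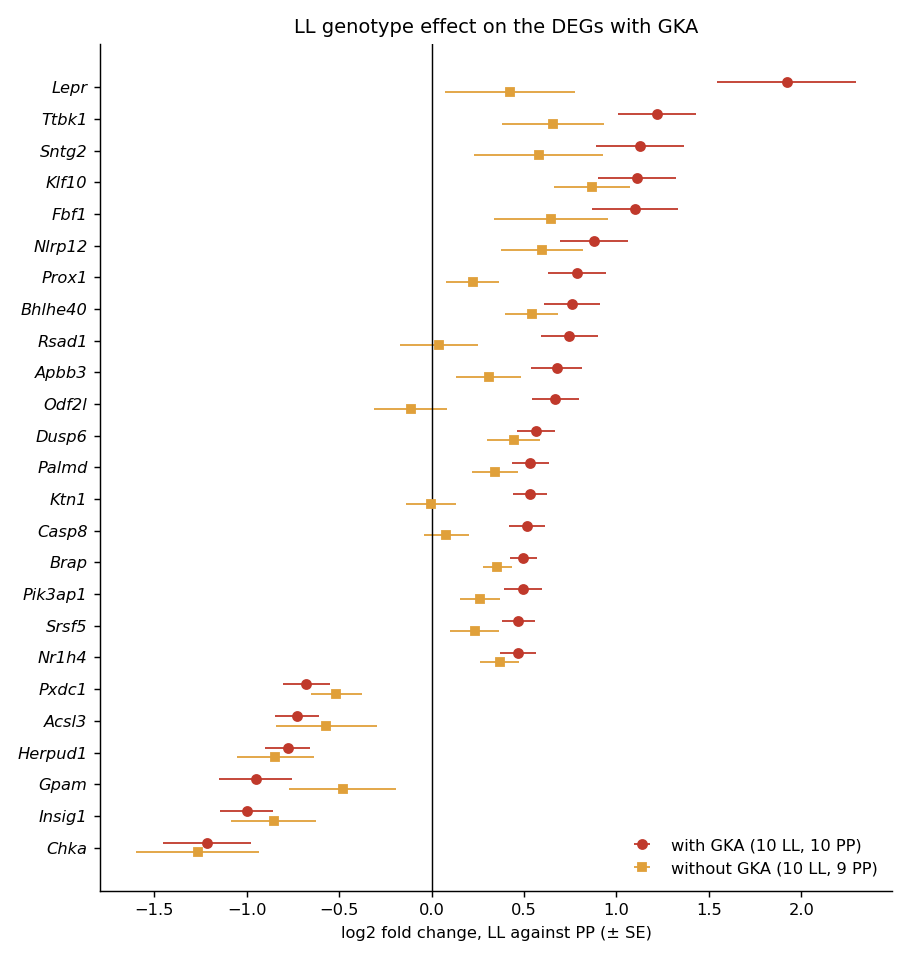
Log2 fold change (± SE) of the 25 DEGs for LL against PP, with GKA (circles, n = 10 and 10) and without GKA (squares, n = 10 and 9). The members were selected on the circles; Chka and Herpud1 lay near the same value in both, and Ktn1 and Odf2l lay at or below 0 without GKA.

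Beyond the DEGs, the genes of the pathways that Insig1, Acsl3 and Gpam belong to were examined as lists. SREBP-2 drives the genes of cholesterol synthesis and uptake, and SREBP-1c those of fatty acid synthesis. In cholesterol biosynthesis 16 of the 20 genes tested had a lower mean in LL, 7 of them with an unadjusted p below 0.05. In the list 0 had an unadjusted p below 0.05 and a higher mean. Over all genes 5168 (49.4%) had a lower mean, and 5.11% had a lower mean with an unadjusted p below 0.05. The median log2 fold change was -0.20 in the list and 0.002 over all genes. None of the 20 passed the adjusted p. Mvd, the decarboxylase of mevalonate pyrophosphate, ranged from 4.97 to 19.9 CPM (median 11.2) in the PP mice and from 1.39 to 10.9 CPM (median 5.4) in the LL mice, a log2 fold change of -0.97 (SE 0.28, unadjusted p = 0.00215, adjusted p = 0.162). Lss, lanosterol synthase, had a log2 fold change of -0.35 (SE 0.11, adjusted p = 0.214) and Sc5d, a desaturase of the late pathway, -0.28 (SE 0.10, adjusted p = 0.267). The ranges of these 3 enzymes overlapped between the groups.

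In the same 20 genes without GKA, 20 had a lower mean in LL, 13 of them with an unadjusted p below 0.05 (background 5.69%), and the median was -0.47. The interaction had an unadjusted p below 0.05 for 1 of the 20, near the 5.75% of all genes. Among the 16 sterol regulation genes, Insig1 was the one DEG, and 12 had a lower mean (49.4% of all genes did, list median -0.10). Rnf139, an ER ubiquitin ligase, had 0.21 (SE 0.08, adjusted p = 0.351). In the LXR and sterol export list, Npc1 had 0.36 (SE 0.11, adjusted p = 0.202) and Scarb1 0.24 (SE 0.11, adjusted p = 0.443), and the median of the 14 genes was 0.05.

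Lipogenesis had the lowest median of the 24 lists. In it 11 of the 15 genes tested had a lower mean in LL, 5 of them with an unadjusted p below 0.05, 0 had an unadjusted p below 0.05 and a higher mean, and the median log2 fold change was -0.44, beside 49.4% of all genes with a lower mean and 5.11% with a lower mean and an unadjusted p below 0.05. Acly, which makes cytosolic acetyl-CoA from citrate, ranged from 233 to 2031 CPM (median 773) in the PP mice and from 219.7 to 576 CPM (median 409.9) in the LL mice. Fasn, the fatty acid synthase, ranged from 498 to 3114 CPM (median 1103) in the PP mice and from 286 to 975 CPM (median 733) in the LL mice. The PP range held 9 of the 10 LL mice for Acly and 6 for Fasn, and in both enzymes the highest LL mouse was below the PP median. The log2 fold change was -1.07 (SE 0.32, adjusted p = 0.195) for Acly, -1.001 (SE 0.32, adjusted p = 0.216) for Fasn, -0.94 (SE 0.33, adjusted p = 0.276) for the elongase Elovl6 and -1.19 (SE 0.42, adjusted p = 0.284) for Pnpla3, a lipid droplet protein. Fatty acid activation, triglyceride synthesis and lipid droplets did not share this direction (14 of 27 lower, beside 49.4% of all genes, list median 0.00), although Acsl3 and Gpam are in it. G0s2, an inhibitor of adipose triglyceride lipase, had 0.57 (SE 0.20, adjusted p = 0.28), and Lipe, hormone-sensitive lipase, 0.47 (SE 0.17, adjusted p = 0.285). None of 21 lipoprotein genes had an unadjusted p below 0.05, beside 10.4% of all genes. Of 20 genes of fatty acid oxidation 2 did, both higher (5.27% of all genes), Cpt1a (0.40, SE 0.11, adjusted p = 0.162) and Vnn1 (0.42, SE 0.20, adjusted p = 0.47).

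**Figure D3:**
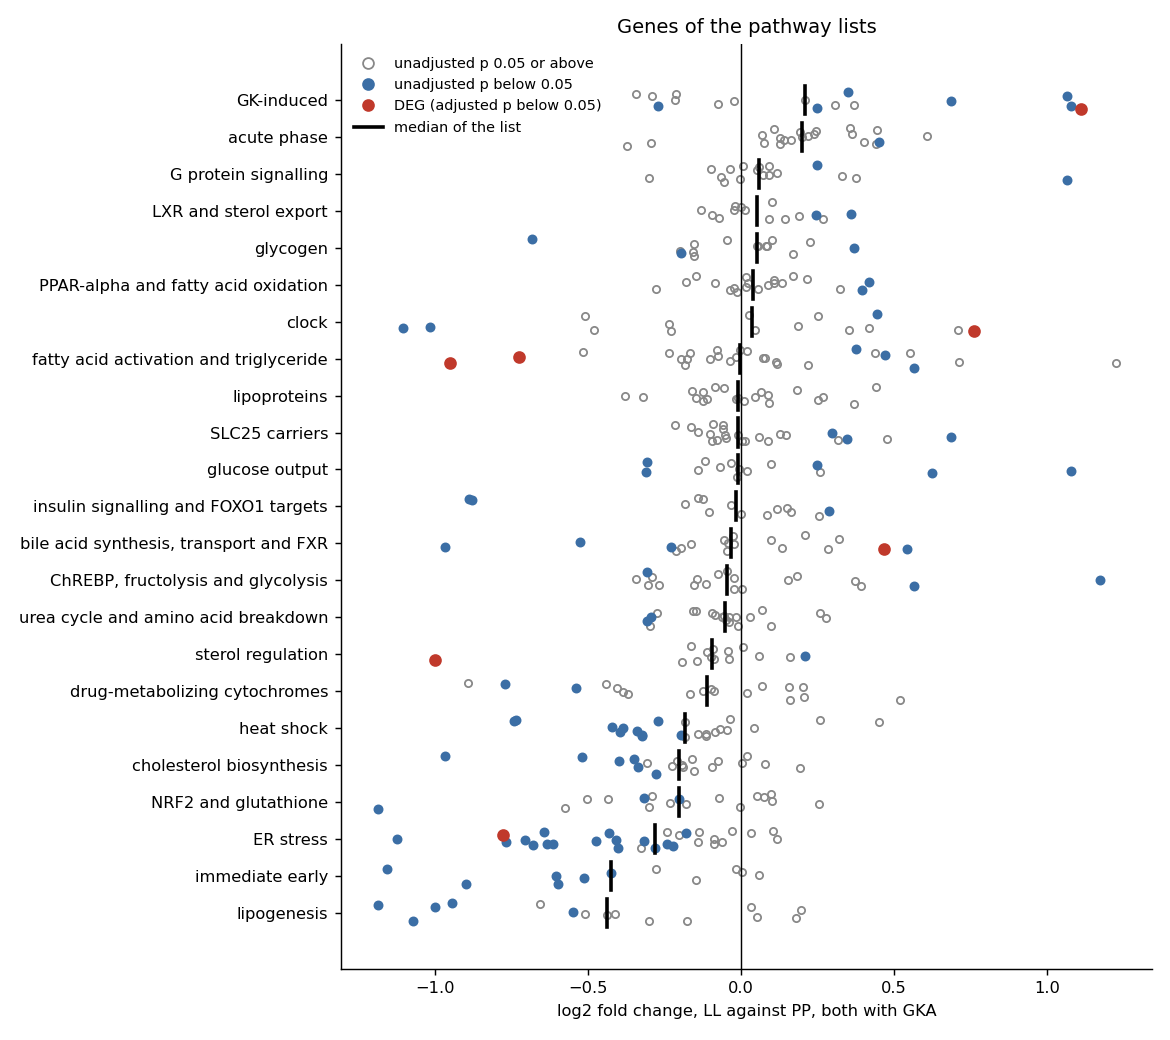
Log2 fold change for LL against PP with GKA of the genes in 23 of the 24 pathway lists (filled blue, unadjusted p below 0.05; red, DEG; open, neither), with the median of each list as a black bar. The medians ran from -0.44 for lipogenesis to 0.21 for the GK-induced genes, beside 0.002 over all genes.

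The ER stress list, to which Herpud1 belongs, had the most genes of the 24 lists with an unadjusted p below 0.05. The unfolded protein response raises ER chaperones, folding enzymes and the machinery that removes misfolded proteins. In this list 26 of the 29 genes tested had a lower mean in LL, 17 of them with an unadjusted p below 0.05, 0 had an unadjusted p below 0.05 and a higher mean, and the median log2 fold change was -0.28 (background 5.11% lower with an unadjusted p below 0.05). Herpud1 alone passed the adjusted p. Dnajb9, a co-chaperone of BiP, ranged from 15.1 to 46.3 CPM (median 39.6) in the PP mice and from 16.5 to 37.3 CPM (median 22.1) in the LL mice, a log2 fold change of -0.64 (SE 0.17, unadjusted p = 0.000773, adjusted p = 0.104). Syvn1, the ubiquitin ligase HRD1 that works with the Herpud1 protein, ranged from 25.5 to 176 CPM (median 75.6) in the PP mice and from 25.8 to 68.0 CPM (median 36.4) in the LL mice, a log2 fold change of -1.13 (SE 0.29, unadjusted p = 0.000801, adjusted p = 0.106). All 10 LL mice lay inside the PP range in both genes, and the LL medians were in its lower part. Edem1, a lectin-like protein of the same disposal route, had -0.40 (SE 0.11, adjusted p = 0.122), and its value turned to 0.048 with the transcript length offset. Without GKA 26 of 29 had a lower mean (47.3% of all genes did), 14 with an unadjusted p below 0.05 (5.69% of all genes), and the median was -0.28. In the interaction none of 30 (1 more was tested there) had an unadjusted p below 0.05, beside 5.75% of all genes.

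In the ER stress list, 12 of the 29 promoter windows held an ERSE or an ERSE-II. The matches are printed with the fixed letters in capitals, 5′ to 3′ on the strand of the match, to set the elements beside the values (GRCm39).
Hspa5, chr2:34662037-34662055, plus strand: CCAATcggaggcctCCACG
Hsp90b1, chr10:86541502-86541520, minus strand: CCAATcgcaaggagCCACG
Hsp90b1, chr10:86541397-86541415, plus strand: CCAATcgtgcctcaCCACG
Dnajb11, chr16:22676602-22676612, plus strand: ATTGGcCCACG
Dnajc3, chr14:119175239-119175257, plus strand: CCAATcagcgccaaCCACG
Pdia6, chr12:17316492-17316510, plus strand: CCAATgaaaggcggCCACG
Calr, chr8:85573704-85573722, plus strand: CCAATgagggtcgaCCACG
Canx, chr11:50216627-50216645, minus strand: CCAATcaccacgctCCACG
Creld2, chr15:88703723-88703741, minus strand: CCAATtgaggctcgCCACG
Herpud1, chr8:95113005-95113015, plus strand: ATTGGgCCACG
Hyou1, chr9:44290661-44290671, minus strand: ATTGGgCCACG
Hyou1, chr9:44290762-44290772, minus strand: ATTGGtCCACG
Syvn1, chr19:6096562-6096580, plus strand: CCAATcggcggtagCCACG
Derl3, chr10:75729076-75729094, minus strand: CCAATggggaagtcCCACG
All 12 of these genes had a lower mean in LL (49.4% of all genes did), 7 with an unadjusted p below 0.05 (5.11% of all genes, median log2 fold change of the 12 genes -0.26). Of the 17 genes without either motif 14 had a lower mean, 10 with an unadjusted p below 0.05 (median -0.32). The median was thus nearer to 0 in the genes with a match. Hspa5, the chaperone BiP, had a log2 fold change of -0.64 (SE 0.23, adjusted p = 0.293), Hyou1 -0.71 (SE 0.29, adjusted p = 0.365) and Creld2 -0.77 (SE 0.33, adjusted p = 0.411), while Pdia6 had -0.09 (SE 0.11, adjusted p = 0.872) and Derl3 -0.14 (SE 0.56, adjusted p = 0.968).

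Most cytosolic heat shock genes also had a lower mean in LL. Of the heat shock list 19 of the 22 genes tested had a lower mean in LL, 10 of them with an unadjusted p below 0.05, 0 had an unadjusted p below 0.05 and a higher mean, and the median log2 fold change was -0.18 (49.4% and 5.11% of all genes had a lower mean and a lower mean with an unadjusted p below 0.05). None passed the adjusted p. Fkbp4, a co-chaperone of HSP90, ranged from 122 to 152 CPM (median 133) in the PP mice and from 91.2 to 134 CPM (median 105) in the LL mice, a log2 fold change of -0.32 (SE 0.07, unadjusted p = 0.000252, adjusted p = 0.0586). Hsph1, a nucleotide exchange factor of HSP70, ranged from 16.9 to 58.5 CPM (median 40.3) in the PP mice and from 15.3 to 36.7 CPM (median 17.7) in the LL mice, a log2 fold change of -0.74 (SE 0.22, unadjusted p = 0.00243, adjusted p = 0.166). In Hsph1 6 of the 10 LL mice lay inside the PP range, and in Fkbp4 2. Dnajb1 had -0.39 (SE 0.11, adjusted p = 0.166) and Bag3 -0.42 (SE 0.13, adjusted p = 0.216). Of 11 immediate early genes tested, 9 had a lower mean, 6 with an unadjusted p below 0.05 (5.11% of all genes, list median -0.43), led by Zfp36 (-0.60, SE 0.14, adjusted p = 0.0586), Btg2 (-0.90, SE 0.28, adjusted p = 0.209), Jund (-0.61, SE 0.23, adjusted p = 0.319) and Ier2 (-0.43, SE 0.16, adjusted p = 0.339). Without GKA 8 of 12 immediate early genes had a lower mean, 2 with an unadjusted p below 0.05 (5.69% of all genes), and the median was -0.21.

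**Figure D4:**
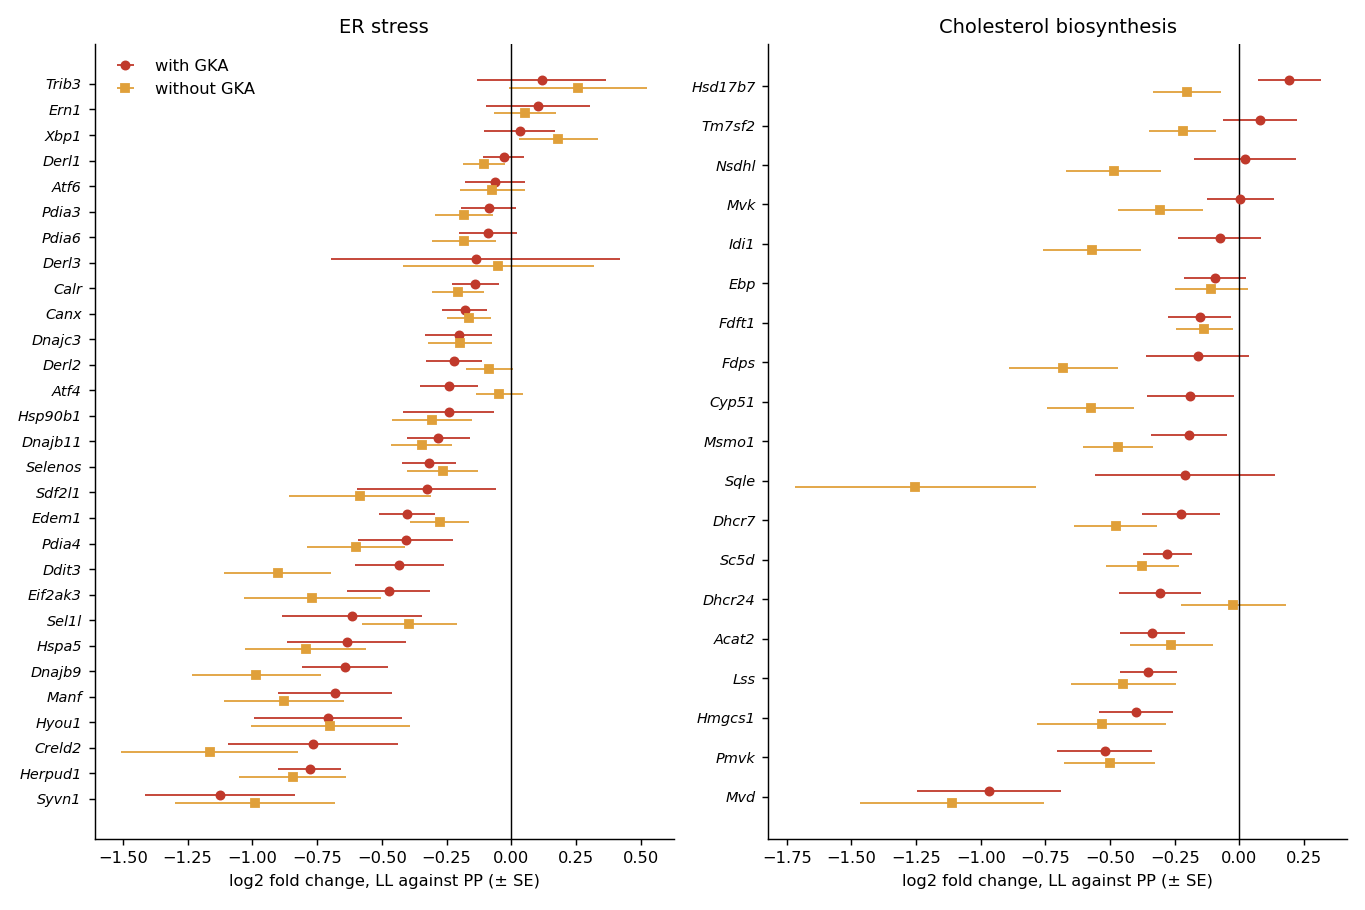
Log2 fold change (± SE) for LL against PP of the tested genes of the ER stress list (left) and of cholesterol biosynthesis (right, 1 of the 20 not drawn), with GKA (circles) and without GKA (squares). In the ER stress list 26 of 29 genes were below 0 in each comparison, and in cholesterol biosynthesis every gene drawn was below 0 without GKA.

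Genes of glucose handling were mixed in direction. The GK-induced list holds genes that the study linked to overexpressed GK in hepatocytes, some of which it also named from livers of this series, so that their direction is not independent evidence. In the livers with GKA 6 of 17 had a higher and 2 a lower mean with an unadjusted p below 0.05 (5.27% and 5.11% of all genes, list median 0.21). Klf10 was the one DEG among them. Slc25a47, a liver mitochondrial carrier, ranged from 185 to 595 CPM (median 452) in the PP mice and from 468 to 925 CPM (median 715) in the LL mice, a log2 fold change of 0.69 (SE 0.17, unadjusted p = 0.000605, adjusted p = 0.0891). G6pc1, the catalytic subunit of glucose 6-phosphatase, ranged from 76.2 to 562 CPM (median 176) in the PP mice and from 259 to 703 CPM (median 424) in the LL mice, a log2 fold change of 1.08 (SE 0.29, unadjusted p = 0.00136, adjusted p = 0.13), and PP mouse 19 stood far above the other PP mice. Txnip, a ChREBP target that restrains glucose uptake, ranged from 20.5 to 70.8 CPM (median 27.0) in the PP mice and from 39.5 to 172 CPM (median 68.0) in the LL mice, a log2 fold change of 1.17 (SE 0.27, unadjusted p = 0.000224, adjusted p = 0.0586), while the median of the 19 genes of ChREBP, fructolysis and glycolysis was -0.04, with Pfkl at -0.31 (SE 0.12, adjusted p = 0.339) and the fructose carrier Slc2a5 at 0.57 (SE 0.22, adjusted p = 0.34).

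In glucose output, Pck1, the gluconeogenic PEP carboxykinase, ranged from 227 to 1472 CPM (median 610.4) in the PP mice and from 662 to 1489.6 CPM (median 1222) in the LL mice, a log2 fold change of 0.62 (SE 0.26, adjusted p = 0.402). Slc2a2, the glucose carrier GLUT2, had 0.25 (SE 0.09, adjusted p = 0.279) and Gpt, alanine aminotransferase, -0.31 (SE 0.12, adjusted p = 0.326). In the glycogen list, Gys2, liver glycogen synthase, had 0.37 (SE 0.11, adjusted p = 0.167) and Ppp1r3b, which targets protein phosphatase to glycogen, -0.68 (SE 0.22, adjusted p = 0.218), so that 2 genes of glycogen synthesis lay on opposite sides of 0. Of the insulin and FOXO1 list, Igfbp1 had -0.89 (SE 0.28, adjusted p = 0.209), Tsc22d3, a glucocorticoid-induced gene, -0.88 (SE 0.22, adjusted p = 0.0862) and Igf1 0.29 (SE 0.14, adjusted p = 0.472). The median of the 14 genes was -0.02. Among 17 genes of G protein signalling, Rgs16 had 1.07 (SE 0.50, adjusted p = 0.472) with a PP range of 2.85 to 205 CPM (median 93.9), and Gna12 had 0.25 (SE 0.11, adjusted p = 0.443). Of 23 mitochondrial carriers of the SLC25 family 12 had a lower mean (median -0.01), and 3 had a higher mean with an unadjusted p below 0.05 (5.27% of all genes), Slc25a47, Slc25a22 (0.35, SE 0.10, adjusted p = 0.187) and Slc25a51 (0.30, SE 0.14, adjusted p = 0.469).

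Bhlhe40 belongs to the clock, whose genes cycle over the day in liver, and the labels give no time of cull for single mice. Of 16 clock genes 9 had a higher and 7 a lower mean (median log2 fold change 0.04). With an unadjusted p below 0.05, 2 had a higher and 3 a lower mean (5.27% and 5.11% of all genes). Cry1, a repressor of the clock, ranged from 1.66 to 12.8 CPM (median 5.43) in the PP mice and from 1.7 to 3.9 CPM (median 2.82) in the LL mice, a log2 fold change of -1.11 (SE 0.33, unadjusted p = 0.00257, adjusted p = 0.166). Hlf, an output factor, had 0.45 (SE 0.14, adjusted p = 0.2). The clock component (the first principal component of the 16 genes over these 20 mice, in SD units, higher where Dbp was higher) was -0.446 ± 1.12 in PP and 0.446 ± 0.642 in LL (two-sided permutation test with 100000 resamples, p = 0.0436). The PP mice ran from -2.18 to 1.06 and the LL mice from -0.739 to 1.45, so the groups differed in the mean and overlapped. With the component as a covariate there were 22 DEGs, 12 of them among the 25. Insig1 (-1.07, adjusted p = 0.00772), Herpud1 (-0.91, adjusted p = 0.00231) and Brap (0.46, adjusted p = 0.0209) passed in that fit. Bhlhe40 (0.50, adjusted p = 0.065) did not, but it is itself 1 of the 16 genes of the component, so that fit is no test of it. Chka changed from -1.22 to -0.71 on the log2 scale and Klf10 from 1.11 to 0.82. The part of the time of cull in these differences was not tested.

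Nr1h4 leads the list of bile acid synthesis, transport and FXR. Its target Nr0b2, the repressor SHP, had a lower mean in LL. Nr0b2 ranged from 14.1 to 59.6 CPM (median 29.5) in the PP mice and from 11.4 to 23.6 CPM (median 14.5) in the LL mice, a log2 fold change of -0.97 (SE 0.22, unadjusted p = 0.000273, adjusted p = 0.0586), and all LL mice were below the PP median. Akr1d1, a reductase of bile acid synthesis, had -0.53 (SE 0.16, adjusted p = 0.21) and Baat, which conjugates bile acids, -0.23 (SE 0.09, adjusted p = 0.338). The exons of Slc25a47, Acly, G0s2, Syvn1, Pfkl, Rnf139, Npc1, Gna12, Trnt1, Abcb6 and Amz2 overlap those of other coding genes, as for Acsl3. The median of the 18 bile acid genes was -0.03.

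Among the remaining lists, 19 of 21 acute phase genes had a higher mean in LL (50.6% of all genes did), but 1 had an unadjusted p below 0.05, Apcs (0.45, SE 0.15, adjusted p = 0.229), and without GKA 12 of 21 had a lower mean (47.3% of all genes did). Single LL mice stood apart in this list, mouse 53 for Apcs and Saa4 and mouse 49 for Crp. The median was 0.20 with GKA and -0.03 without. Of 17 genes of NRF2 and glutathione 12 had a lower mean (49.4% of all genes did), 3 with an unadjusted p below 0.05 (5.11% of all genes, list median -0.20). These 3 were the glutathione transferases Gsta3 (-0.32, SE 0.10, adjusted p = 0.216) and Gsta2 (-1.19, SE 0.46, adjusted p = 0.339) and the reductase Txnrd1 (-0.20, SE 0.08, adjusted p = 0.334). Without GKA the median of the 17 genes was 0.12, and 5 of 17 had an unadjusted p below 0.05 in the interaction, beside 5.75% of all genes. Of 18 drug-metabolizing cytochromes Cyp2c29 (-0.77, SE 0.21, adjusted p = 0.13) and Cyp3a11 (-0.54, SE 0.23, adjusted p = 0.413) had a lower mean with an unadjusted p below 0.05, and of 20 genes of the urea cycle and amino acid breakdown Nags (-0.29, SE 0.08, adjusted p = 0.152) and Gpt did. Over all genes 5.11% had a lower mean with an unadjusted p below 0.05.

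Markers of the other cells of the liver were compared in the same way. None of the 13 marker sums passed the test (two-sided permutation tests with 100000 resamples, adjusted p over the 13 sums at least 0.73). The macrophage genes summed to 428 ± 98.2 CPM in PP and 371 ± 118 CPM in LL (permutation p = 0.257). All 12 macrophage genes tested had a lower mean in LL (49.4% of all genes did), with a median log2 fold change of -0.23 and none at an unadjusted p below 0.05. Without GKA 6 of 12 macrophage genes had a lower mean (47.3% of all genes did), and the median was -0.004. Stellate and fibrosis genes summed to 218 ± 40.2 CPM in PP and 214 ± 70.6 CPM in LL, and endothelial genes to 168 ± 31.7 and 171 ± 51.6 CPM. Pericentral and periportal genes mark the ends of the liver lobule. Their sums were 7116 ± 1204 and 6789.7 ± 2036 CPM in PP, and 7856 ± 1349 and 6588 ± 1246 CPM in LL. Of the 11 pericentral genes, 6 had a higher and 5 a lower mean in LL (log2 fold changes from -0.59 to 0.70, median 0.14). Of these, 3 had a higher mean with an unadjusted p below 0.05 (5.27% of all genes). The repressor Tbx3, 1 of those 3, ranged from 7.32 to 16.9 CPM (median 9.57) in the PP mice and from 10.3 to 24.6 CPM (median 17.4) in the LL mice. Its log2 fold change was 0.70 (SE 0.18, unadjusted p = 0.000577, adjusted p = 0.0862).

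The deposited counts are per transcript, so the make-up of each DEG could be examined. Insig1 came from 1 main transcript, which held 97.8 ± 2.35% in PP and 97.3 ± 1.51% in LL of its reads, and so did Gpam (96.4 ± 3.48% in PP and 97.2 ± 2.74% in LL) and Pik3ap1 (99.9 ± 0.203% in PP and 99.9 ± 0.183% in LL). In these genes the sum over transcripts is close to a single quantity. In others the share of the leading transcript changed widely from mouse to mouse, as in Ktn1 (19.3 ± 25.5% in PP and 17.2 ± 25.2% in LL, over 19 transcripts with reads), Odf2l (19.9 ± 32.2% in PP and 25.1 ± 32.6% in LL) and Sntg2 (32.1 ± 34.4% in PP and 39.0 ± 35.3% in LL). The leading transcript of Acsl3 held 33.5 ± 29.9% in PP and 65.7 ± 16.6% in LL, and that of Klf10 97.4 ± 3.73% in PP and 74.6 ± 39.5% in LL. With the mean transcript length of each mouse as an offset, all 25 DEGs kept their direction and 21 had an unadjusted p below 0.05, but none passed the adjusted p (the smallest over all genes was 0.1). The SE was larger in all 25, by a median of 1.57 times, and by 1.62 times over all genes. Under the offset Insig1 had a log2 fold change of -1.05 (SE 0.20), Ttbk1 1.14 (SE 0.22), Acsl3 -0.50 (SE 0.28) and Odf2l 0.55 (SE 0.36). The count of 25 DEGs thus refers to summed reads.

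**Figure D5:**
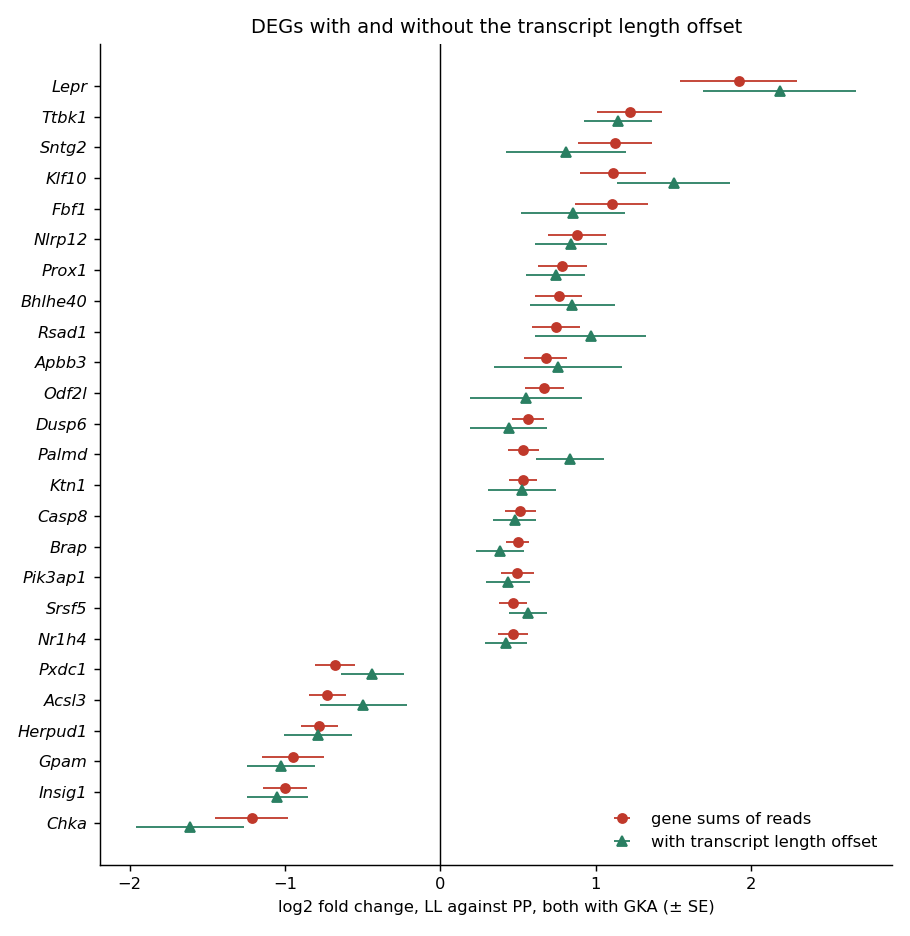
Log2 fold change (± SE) of the 25 DEGs for LL against PP with GKA from summed reads (circles) and with the mean transcript length of each mouse as an offset (triangles). All 25 stay on the same side of 0, and every error bar is longer with the offset.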

How the data were processed

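Liver RNA of 56 mice was sequenced. The authors kept samples with an RNA integrity number over 6, checked the reads with FastQC and ran Salmon 1.4.0 without trimming on GENCODE M26 (GRCm39), with a library strand setting that is not given in the sources used here. Each deposited file holds 1 mouse, with an estimated count (not normalised), TPM scaled by effective length in the authors' run, and the lengths of 139225 transcripts. TPM was not used. Here 98.8% of transcripts, with at least 99.8% of the reads, matched GENCODE vM39 (GRCm39) by identifier, and estimated counts were summed per gene and rounded. No pair of mice in a group looked like 1 library (chi-square per degree of freedom at least 19). The deposited counts were fitted with edgeR 4.0.16 (R 4.3.3, TMM, filterByExpr, quasi-likelihood test, Benjamini-Hochberg adjustment) on the 2 groups compared, and the interaction on 4 groups. A DEG had an adjusted p below 0.05 and an LL to PP ratio of 1.3 or more, or 0.7 or less. PP mouse 7 (without GKA) was left out, as in the study. Fits were tested on simulated data. Alternatives were DESeq2 1.42.0, RLE size factors, no filter, all 6 groups, a transcript length offset, a clock covariate and leaving out each mouse. The labels give no batch, cage, litter or time of day. Single quantities were compared by permutation tests (SciPy 1.17.1).

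Named genes were Gckr, up to 15 higher and 15 lower DEGs with an established symbol by smallest p, up to 4 genes of each list by smallest p, 3 genes per direction of the interaction, and markers of reported sums. Some genes that the rule names are not reported here. Hspa5, Hyou1, Creld2, Pdia6 and Derl3 were named for their promoter motif after their values were seen. The members, the 24 pathway lists, the 13 marker lists and the rule were chosen with earlier results of these data known, and no list was tested as a set. Of the 9 hepatocyte markers, 8 matched a symbol in the annotation.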

Additional observations from a re-analysis of the deposited data

Results flagged for a closer look

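Of 258 sets of 10 values examined (the named genes, marker sums, mitochondrial share and clock component in PP and LL with GKA), 18 had a single mouse far from the rest by Dixon's gap test, and chance alone flags about 1 in 20. In PP the gene values were those of G6pc1 in mouse 19 (561.7 CPM, next 331.9), Slc25a25 in mouse 19 (376.2 CPM, next 167), Slc25a22 in mouse 16 (131 CPM, next 107), Nags in mouse 12 (40.4 CPM, next 32.5), Gsta2 in mouse 14 (41.3 CPM, next 16.7) and Btg2 in mouse 14 (17 CPM, next 10.4). The adipose genes summed to 2.2 CPM in PP mouse 13.

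In LL, mouse 51 was highest for Insig1 (175 CPM, next 122) and Sntg2 (7.48 CPM, next 4.75). Mouse 49 was highest for Dnajb9 (37.3 CPM, next 25.4), Igfbp1 (33.9 CPM, next 21.2) and Crp (381 CPM, next 309). Mouse 53 was highest for Saa4 (508 CPM, next 231), Apcs (93.1 CPM, next 64.7), the blood genes (2963 CPM, next 720.5) and the adipose genes (4.32 CPM, next 2.29). Cps1 was highest in mouse 50 (3353 CPM, next 2228), and the bile duct genes in mouse 48 (73.5 CPM, next 29). Without mouse 51 the log2 fold change of Insig1 was -1.10, and without mouse 53 there were 28 DEGs.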

How the results depend on the processing

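The 25 DEGs with GKA became 92 with DESeq2 (49 higher, 43 lower, with all 25 among them), 45 with all 6 groups in 1 fit (20 of the 25) and 0 with the length offset (752 genes at an unadjusted p below 0.05). There were 25 with RLE size factors, 17 with no filter on low counts, 22 with the clock covariate and 25 with no fold threshold. Leaving out 1 mouse gave 12 to 47 DEGs, with 12 without PP mouse 11, 15 without PP mouse 12 and 47 without PP mouse 13. Of the 25, 10 passed in all 20 such fits. The 9 DEGs without GKA became 109 with DESeq2, 65 with all 6 groups, 26 with PP mouse 7 kept, 2 with the length offset, 1 with no filter and 0 with RLE size factors or the clock covariate, and 0 to 85 when 1 mouse was left out (67 without PP mouse 6, 85 without LL mouse 42, 0 in 14 of 19 fits). The interaction had 0 genes in the other fits, those that left out 1 mouse included, and 1 with DESeq2. With the length offset Gckr reversed to 0.074, Edem1 to 0.048, Akt1 to -0.047 and Slc25a25 to -0.39, none of them past the adjusted p in either fit. The median of the glycogen list moved from 0.050 to -0.039 with the length offset and -0.072 with the clock covariate, and to between -0.035 and 0.063 when 1 mouse was left out. The medians of the other 23 pathway lists moved by less than 1 SD between mice. The cause of these differences was not tested. All DEGs kept their direction under every alternative run. Depth limits genes with few reads, such as Lepr, Ttbk1, Rsad1 and Sntg2. No paired analysis was possible because the mouse numbers are not shared between groups.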

Other observations

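Total reads were 5.19 to 7.73 M in PP and 5.49 to 7.07 M in LL (two-sided permutation test, p = 0.267). The lymphocyte genes summed to 15.6 ± 4.96 CPM in PP and 12.7 ± 7.88 CPM in LL, and the neutrophil genes to 1.41 ± 0.537 and 1.82 ± 1.17 CPM.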
